A study of Mus musculus with 6 samples.

Results

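Heat shock proteins are chaperones that bind unfolded proteins, and 10 of their genes were followed here: Hspa1a, Hspa1b and Hspa8 of the HSP70 family, Hsp90aa1 of the HSP90 family, the HSP110 gene Hsph1, the HSP40 gene Dnajb1, the small heat shock protein genes Hspb1, Hspb8 and Cryab, and the cochaperone gene Bag3. They were chosen by name, and all 10 were among the 21485 genes that could be compared in every sample. The cells were muscle-derived stem/progenitor cells (MDSPCs), mouse cells that attach slowly to collagen-coated flasks after muscle has been dissociated with enzymes. The study had 3 young populations (Y1-1, PtC5 and FT-QU, called young 1 to young 3) and 3 old populations (O1-1, NA-f2 and NA-f3, called old 1 to old 3), all grown in proliferation medium. Each population gave 1 library of droplet-based 3′ single-cell RNA sequencing and was 1 replicate. The labels call the replicates biological and state no ages, sex or strain. All 6 populations had been through enzymes, serial plating and culture.

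HSP70 proteins hold unfolded stretches of protein through cycles of ATP use, which HSP40 proteins such as Dnajb1 start, and which HSP110 and BAG proteins such as Hsph1 and Bag3 move on by exchanging the nucleotide. Hspa8 is the HSP70 that cells make at all times, while Hspa1a and Hspa1b are the copies that heat shock factor 1 switches on under stress, through repeats of the bases GAA in opposite orientation near the gene's start. Small heat shock proteins keep unfolding proteins from clumping without ATP, and in muscle Cryab, Hspb1 and Hspb8 associate with the Z-disc, where Bag3 links Hspb8 to HSP70 for the clearance of damaged filament proteins.

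The kept cells numbered 61673 of 62849 barcodes, between 8674 and 12541 per sample, at a median of 13001 to 19951 unique molecular identifiers (UMIs, tags by which 1 RNA molecule is counted once) per cell. The deposited matrices held between 133974782 and 196481316 UMIs per sample. Any pair of libraries shared 24 to 41 of the deposited barcodes, at most 0.375% of those of the smaller library. Levels are given as CPM, UMI counts divided by the library's total and brought to a common total, scaled between samples by the trimmed mean of M-values where whole samples are compared. The 3′ method tags 1 end of each molecule, so that a level does not grow with the length of the transcript. Summed myogenic markers lay between 277 and 3720 CPM. In young 3, with a sum of 309 CPM, Megf10 gave 132, Chrna1 62.7, Myod1 42.6, Myog 32.4 and Myf5 31.0 CPM. Its Pax7, Des and Cdh15 stood at 0.025, 2.51 and 5.83 CPM, and Myf5 in young 1 at 0.0087 CPM. The sums were at most 1.11 CPM for endothelial, 9.58 CPM for immune, 2.60 CPM for Schwann cell and 72.3 CPM for pericyte and smooth muscle markers. Of these 72.3 CPM, in young 2, Notch3 gave 68.9. Fibro-adipogenic markers summed to 182 to 438 CPM, of which Gsn gave 132 to 306 and Col3a1 12.9 to 133 CPM. Smoc2 gave 1.19 to 104 CPM, and Pdgfra, Dcn, Lum and Dpt were each at most 1.86 CPM. The summed level of 8 contractile genes was 777, 2452 and 120 CPM in young 1, 2 and 3 and 87.3, 1049 and 10379 CPM in old 1, 2 and 3, so the populations differed widely in muscle differentiation within each age group.

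The stress-inducible pair lies on mouse chromosome 17 (GRCm38). Hspa1a (ENSMUSG00000091971) spans chr17:34969190-34972156 and Hspa1b (ENSMUSG00000090877) spans chr17:34956436-34959238, both on the minus strand. Hspb1 (ENSMUSG00000004951) spans chr5:135887919-135889563 on the plus strand. The 250 bases upstream of these 3 genes are shown because each holds the inverted repeat GAANNTTC, printed in capitals and searched on both strands, on which it reads the same. The sequences are RefSeq's for GRCm38.p6, read 5′ to 3′ on the strand of the gene, from chr17:34972157-34972406, chr17:34959239-34959488 and chr5:135887669-135887918.
Hspa1a: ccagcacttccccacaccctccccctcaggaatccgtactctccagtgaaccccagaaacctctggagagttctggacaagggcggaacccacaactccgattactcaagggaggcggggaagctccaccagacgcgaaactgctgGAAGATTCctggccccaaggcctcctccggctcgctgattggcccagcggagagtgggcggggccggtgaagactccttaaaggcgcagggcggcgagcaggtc
Hspa1b: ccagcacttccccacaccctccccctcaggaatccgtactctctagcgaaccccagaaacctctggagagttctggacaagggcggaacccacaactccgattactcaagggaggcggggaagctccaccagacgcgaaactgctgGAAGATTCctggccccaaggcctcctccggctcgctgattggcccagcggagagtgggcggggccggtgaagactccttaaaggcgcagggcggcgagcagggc
Hspb1: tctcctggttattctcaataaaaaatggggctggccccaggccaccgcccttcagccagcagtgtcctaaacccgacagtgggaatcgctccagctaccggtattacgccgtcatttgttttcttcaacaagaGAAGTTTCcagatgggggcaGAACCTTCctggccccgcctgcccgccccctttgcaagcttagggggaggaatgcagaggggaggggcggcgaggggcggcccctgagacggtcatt

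The Hspa1a and Hspa1b stretches differed at 3 of 250 bases (98.8% identity), as C44T, T47C and T249G, with the base of Hspa1a first and positions counted from 1 at the 5′ end. Each held 1 motif, starting 104 bases before the gene's start, and the Hspb1 stretch held 2, at 117 and 97 bases before the start. Of 32851 upstream windows of that length in the RefSeq table, 6.69% held at least 1 such motif and 0.228% held at least 2. Promoter entries were matched for 7 of the 10 members. In the windows of 300 bases, which run past the start and of which 7.86% held a motif, Hsph1, Hspb8 and Bag3 had 1 each after the start, and the windows of Dnajb1 had none. A match of letters describes the sequence and not binding.

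Reads of 90 bases can tell the pair apart only where the copies differ. Of all windows of that length along the transcript, 49.3% in Hspa1a and 52.3% in Hspa1b occurred unchanged in the other copy. In the last 500 bases, the end that 3′ sequencing samples most, 0 of 411 windows of either gene were shared. The copies are therefore given separately and also as a sum, since how reads from the shared stretch were assigned is not given in the sources used here. The annotation also places other genes over Hspa1a, Hspa8, Cryab (which overlaps Hspb2 on the opposite strand) and Bag3.

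The members differed widely in level. Hspa8, Hsp90aa1 and, in most samples, Cryab and Hspb1 were the most abundant, Hsph1, Dnajb1 and Bag3 stood between 23.7 and 162 CPM, and the inducible pair at or under 13.3 CPM, while Hspb8 ran from 0.015 to 53.7 CPM. Hspa8, the constitutive HSP70 (ENSMUSG00000015656, chr9:40800984-40810087, plus strand), stood at 1351, 1341 and 1224 CPM in young 1, 2 and 3 and at 1357, 1017 and 1041 CPM in old 1, 2 and 3. It was the steadiest member, with a highest sample 1.33 times the lowest, and old 1 lay at the top while the other 2 old populations lay at the bottom. Hsp90aa1, the stress-responsive HSP90 copy (ENSMUSG00000021270, chr12:110690605-110702728, minus strand), stood at 1029, 1381 and 1083 CPM in young samples, against 1493, 789 and 927 CPM in old samples. Its old samples enclosed the young ones, and its range overlapped that of Hspa8, so the order of these neighbours was not the same in every sample. The constitutive partner Hsp90ab1 was higher than Hsp90aa1 in all 6 samples, at 1986 to 3485 CPM in young samples, against 1789 to 2425 CPM in the old.

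The inducible copies were rare in every population. Hspa1a stood at 2.80, 2.26 and 0.849 CPM in young 1, 2 and 3 and at 1.31, 7.42 and 3.03 CPM in old 1, 2 and 3. Hspa1b stood at 8.0, 6.68 and 4.19 CPM in young samples, against 9.48, 13.3 and 6.42 CPM in old samples. Hspa1b was above Hspa1a in all 6 samples, old 2 was highest and young 3 lowest for both, and the age groups overlapped.

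The cochaperones and Hsph1 varied little. Hsph1, the HSP110 nucleotide exchange factor (ENSMUSG00000029657, chr5:149614287-149636376, minus strand), stood at 108, 138 and 162 CPM in young samples, against 114, 123 and 106 CPM in old samples. Dnajb1, the HSP40 that feeds clients to HSP70 (ENSMUSG00000005483, chr8:83608193-83612653, plus strand), stood at 41.3, 28.3 and 38.5 CPM in young samples, against 35.6, 23.7 and 32.4 CPM in old samples. Bag3, the partner of Hspb8 in filament quality control (ENSMUSG00000030847, chr7:128523616-128546981, plus strand), stood at 31.4, 48.6 and 36 CPM in young samples, against 29.4, 42.1 and 41.1 CPM in old samples. The highest sample was 1.53, 1.75 and 1.65 times the lowest for Hsph1, Dnajb1 and Bag3, the age groups overlapped for each, and the ranges of Dnajb1 and Bag3 overlapped one another.

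The small heat shock protein genes spread far more. Cryab, which encodes alphaB-crystallin (ENSMUSG00000032060, chr9:50751325-50756636, plus strand), stood at 1370, 913 and 511 CPM in young 1, 2 and 3 and at 339, 1193 and 2023 CPM in old 1, 2 and 3. Hspb1, the mouse form of HSP27, stood at 262, 460 and 4.59 CPM in young samples, against 85.3, 1048 and 922 CPM in old samples. Hspb8 (ENSMUSG00000041548, chr5:116408491-116422864, minus strand) stood at 0.542, 0.814 and 0.015 CPM in young samples, against 19.3, 53.7 and 2.01 CPM in old samples. Cryab and Hspb1 overlapped between the age groups, with old 1 and young 3 lowest for both genes, the same pair that had the lowest contractile sums. Young 1, with a contractile sum of 777 CPM, had more Cryab than young 2, with 2452 CPM. In cells without UMIs of the muscle factor Myog, old 1 and young 3 were lowest too. They stood there at 373 and 533 CPM unscaled for Cryab and at 92.7 and 3.00 CPM for Hspb1. The part of differentiation in these levels was not tested. For Hspb8 every old sample was above every young one, on 62, 156 and 3 UMIs in young samples, against 3294, 9879 and 345 UMIs in the old libraries. From highest to lowest sample the ratio was 5.96 for Cryab and 228 for Hspb1. Genes of chromosome 5 as a whole, which carries Hsph1, Hspb1 and Hspb8, had a median deviation from the other samples that was 0.23 log2 units above that of all genes in old 2 (515 genes), and the part of this in the members' levels there was not tested.

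**Figure D1:**
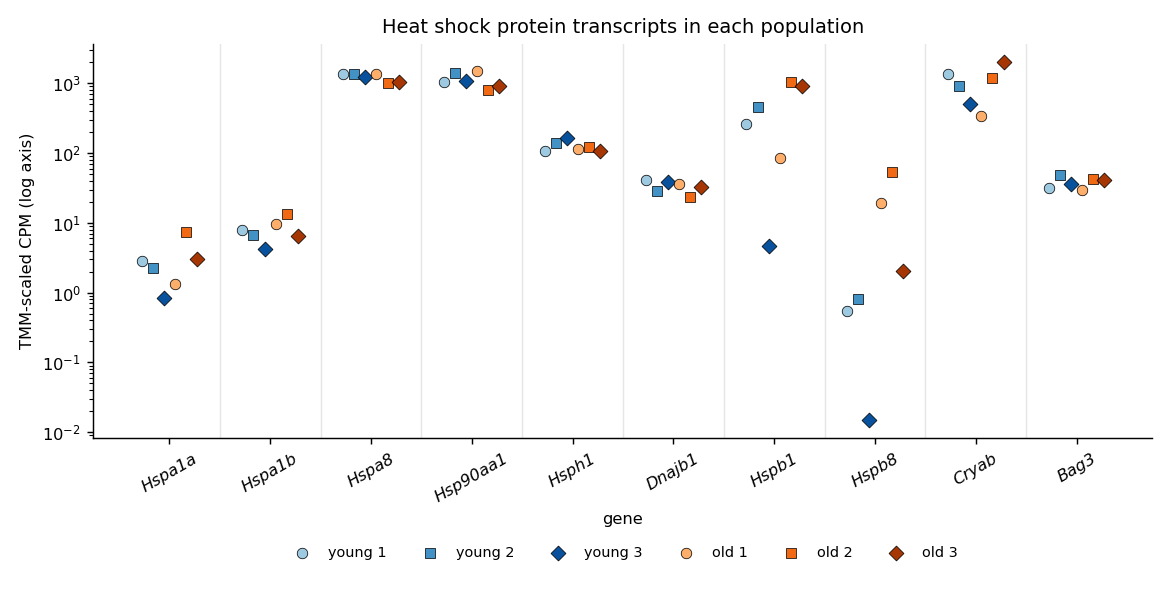
Scaled level of each member in CPM (log axis) in the 3 young and 3 old samples, with 1 point per sample. Hspa8 sits between 1017 and 1357 CPM in all samples, while Hspb1 runs from 4.59 to 1048 CPM and the Hspb8 points of the 2 age groups do not overlap.

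The share of cells with at least 1 UMI followed these levels only in part. Cryab, for example, had a higher level in young 1 than in old 2 but was found in a smaller share of cells. To make cells of different depth comparable, each was thinned to 5000 UMIs, which left out 539 young and 829 old cells with fewer. Hspa8 was then found in 97.2% to 99.6% and Hsp90aa1 in 96.8% to 99.8% of cells, against 99.1% to 99.7% and 99.0% to 99.7% before thinning. The thinned share was 35.6% to 55.3% for Hsph1, 11.5% to 18.0% for Dnajb1 and 12.4% to 20.7% for Bag3. Hspa1b was found in 2.37% to 6.90% of thinned cells and 7.39% to 22.1% of unthinned ones, and Hspa1a in 0.499% to 3.96% and 1.54% to 13.8%. An even spread of the UMIs over the thinned cells would give nearly the same, 2.38% to 7.15% for Hspa1b and 0.497% to 4.00% for Hspa1a. No cell type that should lack these genes was present to measure the share that free RNA gives, so the low shares are not read as counts of expressing cells.

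Hspb1 showed the widest difference in share. It was found in 50.4%, 80.8% and 1.88% of thinned cells of young 1, 2 and 3 and in 22.8%, 94.9% and 93.9% of those of old 1, 2 and 3. The unthinned shares were 70.3%, 96.7% and 5.31% in young samples, against 36.1%, 99.1% and 97.4% in old samples. Young 3 thus held Hspb1 UMIs in few cells although its depth was above that of young 1. Hspb8 was found in 0.166%, 0.319% and 0 of the thinned young cells, where a count of 0 allows up to 0.0282% of cells with a UMI at this depth in young 3 (3 counts of the cells), and in 9.33%, 17.6% and 0.518% of the thinned old cells. Before thinning these shares were 0.357%, 0.787% and 0.0278% in young samples, against 24.4%, 41.6% and 1.6% in old samples. Cryab was found in 85.4% to 90.6% of thinned young cells and in 66.4%, 97.0% and 97.2% of the old ones. These shares carry counting error only.

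Between old and young populations, no member passed the test, and 0.00689% of 14512 genes did in either direction (1 gene, and 3.53% at an unadjusted p under 0.05). The test was edgeR's quasi-likelihood test on the summed counts of each sample, with a term for the gene list. The same test with Benjamini-Hochberg adjustment at 0.05 was used in what follows. Comparisons of cell classes within samples had a term for the sample in place of the gene list. Hspb8 had the largest difference among the members, with means of 0.457 ± 0.406 CPM in young samples, against 25.0 ± 26.3 CPM in the old populations (SD, n = 3 each). The log2 fold change of Hspb8 was 5.77 (SE 1.81, unadjusted p = 0.0208, adjusted p = 1.00 by edgeR), and across the other edgeR settings its adjusted p ran from 0.197 to 1.00. DESeq2 gave 5.75 with an adjusted p of 0.00289, and called 219 genes in all. The edgeR value was 3.58 without old 2 and 7.63 without young 2. Groups that do not overlap were seen for 6.13% of all genes, for 3.58% with the old samples above and for 2.56% with them below.

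The inducible copies had wide errors. For Hspa1a the log2 fold change was 0.87 (SE 0.89) and for Hspa1b 0.66 (SE 0.41). Without old 2 these were 0.15 and 0.25 and without young 3 they were 0.18 and 0.43. Young 1 and old 1 alone used the shorter gene list. Without young 1 or old 1 the list term took up the other, which left young 2 and 3 against old 2 and 3. Hspa1a was 1.74 in both of these fits. The log2 fold change was 1.00 (SE 1.73) for Hspb1 and 0.21 (SE 0.78) for Cryab. Leaving out 1 sample moved Hspb1 between -0.131 and 3.25, and the sign of Cryab turned in several alternatives. Hspa8 at -0.21 (SE 0.20), Hsp90aa1 at -0.17 (SE 0.30), Hsph1 at -0.23 (SE 0.22), Dnajb1 at -0.24 (SE 0.23) and Bag3 at -0.04 (SE 0.20) had smaller errors. None of these 9 genes reached an adjusted p under 0.05 in edgeR. Among 60 other chaperone genes in 9 lists (cytosolic HSP70, HSP90 with its cochaperones, HSP40, small heat shock proteins, nucleotide exchange, heat shock factors, mitochondrial, chaperonin TRiC and ER chaperones), 0 passed, and their median log2 fold change was -0.12 against -0.01 for all genes tested.

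The inducible pair was also set against Hspa8 within each sample. Hspa1a plus Hspa1b came to 0.799%, 0.667% and 0.411% of Hspa8 in young 1, 2 and 3 and to 0.795%, 2.04% and 0.908% in old 1, 2 and 3. Old 2 was highest and young 3 lowest, and old 1 lay among the young values. The mean log2 ratio was -7.37 ± 0.50 in the young and -6.46 ± 0.74 in the old populations (SD, n = 3 each), a difference of 0.92 (two-sided exact permutation test p = 0.2, where 3 against 3 cannot go below 0.1). Without old 2 the difference was 0.49. Hsp90aa1 came to 51.8%, 39.6% and 47.6% of Hsp90ab1 in young populations, against 61.6%, 44.1% and 45.3% in old ones, with a difference of 0.11 in log2 ratio (two-sided exact permutation test p = 0.7) that was -0.04 without old 1.

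**Figure D2:**
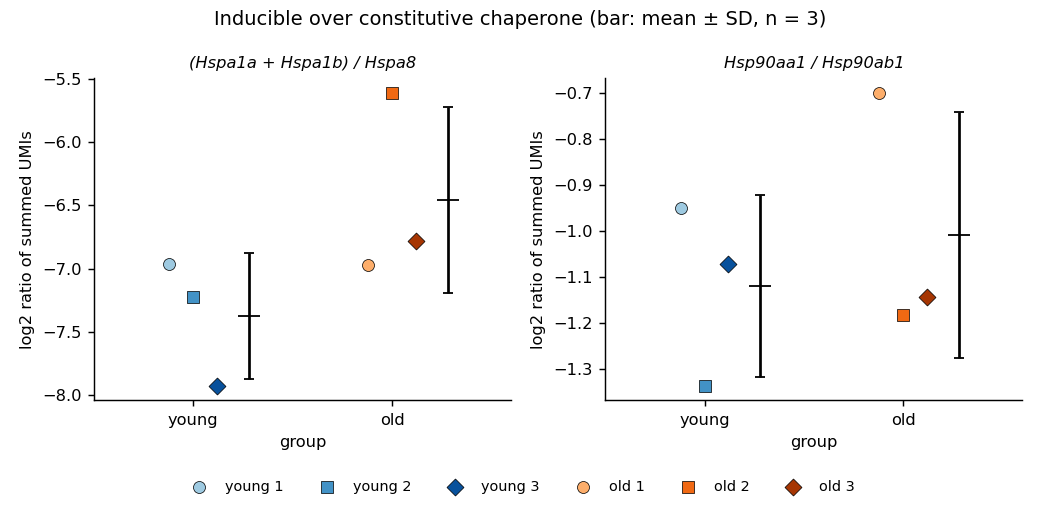
Log2 ratio of the inducible to the constitutive gene for each sample, for Hspa1a plus Hspa1b over Hspa8 and for Hsp90aa1 over Hsp90ab1. Young and old samples stand side by side, with bars for the mean ± SD of each group (n = 3). Old 2 stands at -5.61 for the HSP70 ratio, above the -7.93 to -6.78 of the other 5 samples, and the age groups overlap in both ratios.

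Myogenin (Myog) is the transcription factor that marks muscle cells committed to fuse and differentiate. Cells with 2 or more Myog UMIs were compared with cells at 0 within each sample. Such cells made up 3.17%, 19.8% and 4.90% of young 1, 2 and 3 and 0.463%, 15.2% and 44.4% of old 1, 2 and 3. Old 1, with 47 of them, was under the minimum of 50 and left out, which leaves 5 samples. Cryab and Bag3 were higher in Myog-positive cells and Hspa1b was lower, 3 of 10 members against 31.6% of 13387 genes (14.3% higher and 17.3% lower, with 45.8% at an unadjusted p under 0.05). The members' share was thus near that of all genes.

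Cryab was the member with the largest change that passed. It went from 1121 to 2830 CPM in young 1, from 734 to 1574 in young 2 and from 533 to 808.5 in young 3. In old 2 it went from 995 to 2402 and in old 3 from 1257 to 2625 CPM. All 5 samples moved the same way, with a log2 fold change of 1.13 (SE 0.12, adjusted p = 0.00246 by edgeR), and the 47 positive cells of old 1, outside the fit, stood at 2586 against 373 CPM.

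Bag3 rose less. Its level in Myog-negative and Myog-positive cells was 26.2 and 46.8 CPM in young 1, 46.0 and 55.9 in young 2, 38.4 and 42.2 in young 3, 41.4 and 53.1 in old 2, and 38.0 and 38.1 in old 3. The difference was widest in young 1 and almost nil in old 3, and the log2 fold change was 0.37 (SE 0.11, adjusted p = 0.0400 by edgeR). Hspa1b fell, from 6.85 to 6.68 CPM in young 1, 6.71 to 5.77 in young 2, 4.67 to 2.52 in young 3, 14.7 to 9.35 in old 2 and 7.42 to 4.78 in old 3. Its log2 fold change was -0.43 (SE 0.14, adjusted p = 0.0489 by edgeR). Both calls sat near the threshold. Leaving out 1 sample at a time ended the Bag3 call in 4 of 5 cases and the Hspa1b call in 5 of 5, with adjusted p up to 0.116 and 0.153. The Bag3 call was also lost without high doublet scores (adjusted p = 0.0618 by edgeR), with thinned cells (0.0563) and in G2/M-low cells (0.0646), and the Hspa1b call with Myog-positive cells taken from 5 UMIs (0.0503). In all, Bag3 passed in 7 and Hspa1b in 8 of 15 alternatives.

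Hspb1 was higher in Myog-positive cells of all 5 samples and missed the threshold. Its level in Myog-negative and Myog-positive cells was 210 and 655 CPM in young 1, 385 and 710 in young 2, 3.00 and 39.5 in young 3, 937 and 1747 in old 2, and 717 and 1030 in old 3. The ratio was widest in young 3, and the log2 fold change was 1.5 (SE 0.46, adjusted p = 0.0558 by edgeR), or 1.04 without young 3 (adjusted p = 0.00625 by edgeR). With old 1 included it was 1.79 (adjusted p = 0.0399 by edgeR, an alternative added after the data were seen). Hspb1 passed in 4 of 15 alternatives. Hspb8 was higher in 4 of 5 samples, in young 3 on 1 UMI in each class, at 2.02 (SE 0.89, adjusted p = 0.135 by edgeR). It fell in old 3, from 2.46 to 1.32 CPM on 186 and 113 UMIs. DESeq2 called Hspb8 at 2.57 (adjusted p = 0.0167), and edgeR without old 3 at 2.98 (adjusted p = 0.0392). It passed in these 2 of 15 alternatives only.

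The HSP70 and HSP90 genes did not pass. Hspa8 was lower in Myog-positive cells of 5 of 5 samples at -0.11 (SE 0.06, adjusted p = 0.172 by edgeR), and Hsp90aa1 in 5 of 5 at -0.22 (SE 0.09, adjusted p = 0.0987 by edgeR). For all genes tested, 28.9% were lower in every sample and 15.6% higher. Hsph1 at 0.23, Hspa1a at -0.12 and Dnajb1 at -0.01 on the log2 scale also stayed short of the threshold. Hsph1 passed in 2 of 15 alternatives, without young 3 (0.30, adjusted p = 0.0319 by edgeR) and in G2/M-low cells only (0.36, adjusted p = 0.0414 by edgeR). In G2/M-low cells Hspa8 and Dnajb1 turned in sign, to 0.106 and 0.132. Leaving out the 1 cell of old 3 with 107 inducible HSP70 UMIs moved Hspa1a to -0.26 (adjusted p = 0.207 by edgeR).

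**Figure D3:**
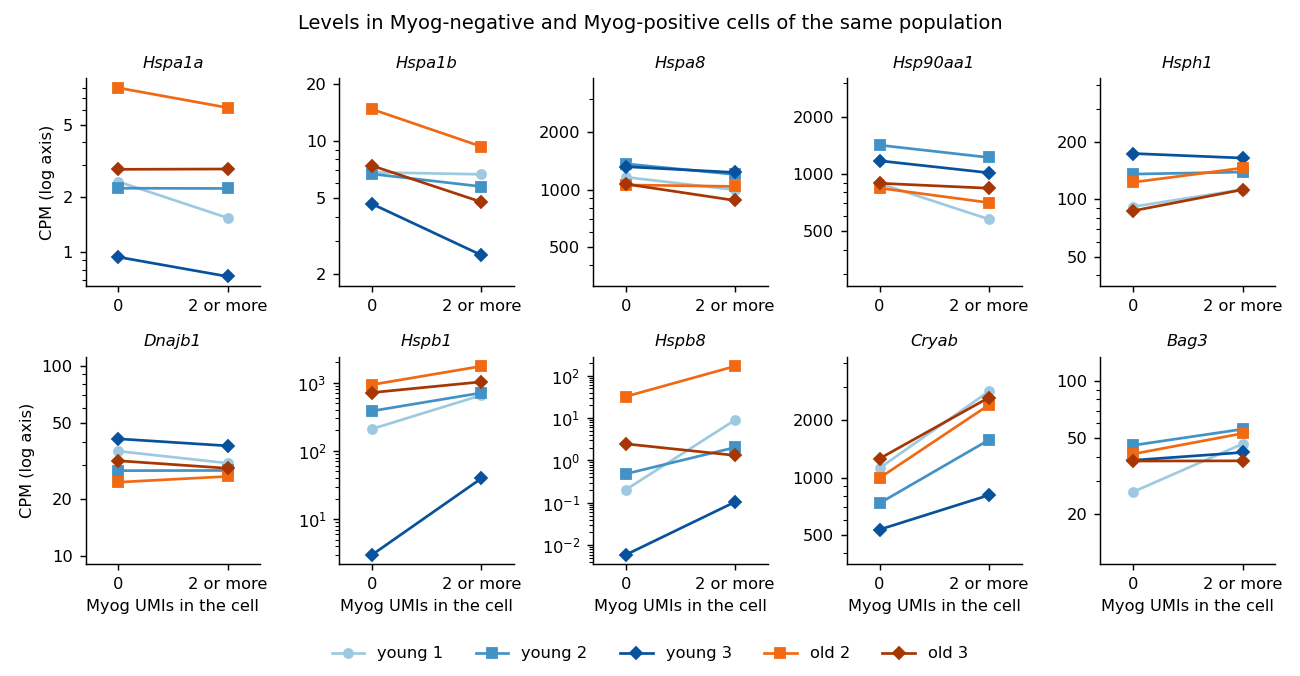
Level of each member in CPM (log axis) in Myog-negative and Myog-positive cells of the 5 samples tested, joined by a line per sample. The Cryab and Hspb1 lines climb and the Hspa8 and Hsp90aa1 lines go down in every sample, with the steepest Hsp90aa1 line in young 1, from 891 to 579 CPM.

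Cells were then divided by their Myog count, from 0 to 20 or more UMIs. Cryab went from 1121 to 4615 CPM between these ends in young 1, from 734 to 2368 in young 2, from 533 to 1925 in young 3, from 995 to 3329 in old 2 and from 1257 to 3457 in old 3. Hspb1 went from 210 to 993, 385 to 936, 3.00 to 185, 937 to 2077.5 and 717 to 1188 CPM in the same samples. In young 3 both genes stayed near their lowest level up to 4 Myog UMIs and climbed beyond 9. Hspa8 went from 1163 to 1126 CPM in young 1, with 878 CPM at 5 to 9 Myog UMIs, from 1365 to 1157 in young 2, 1319 to 1152 in young 3, 1058 to 1037 in old 2 and 1069 to 828 in old 3. Bag3 went from 26.2 to 41.3 CPM in young 1, 46.0 to 60.4 in young 2, 38.4 to 50.4 in young 3 and 41.4 to 57.5 in old 2. In old 3 Bag3 went down, from 38.0 to 34.8 CPM. These are values without a test.

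**Figure D4:**
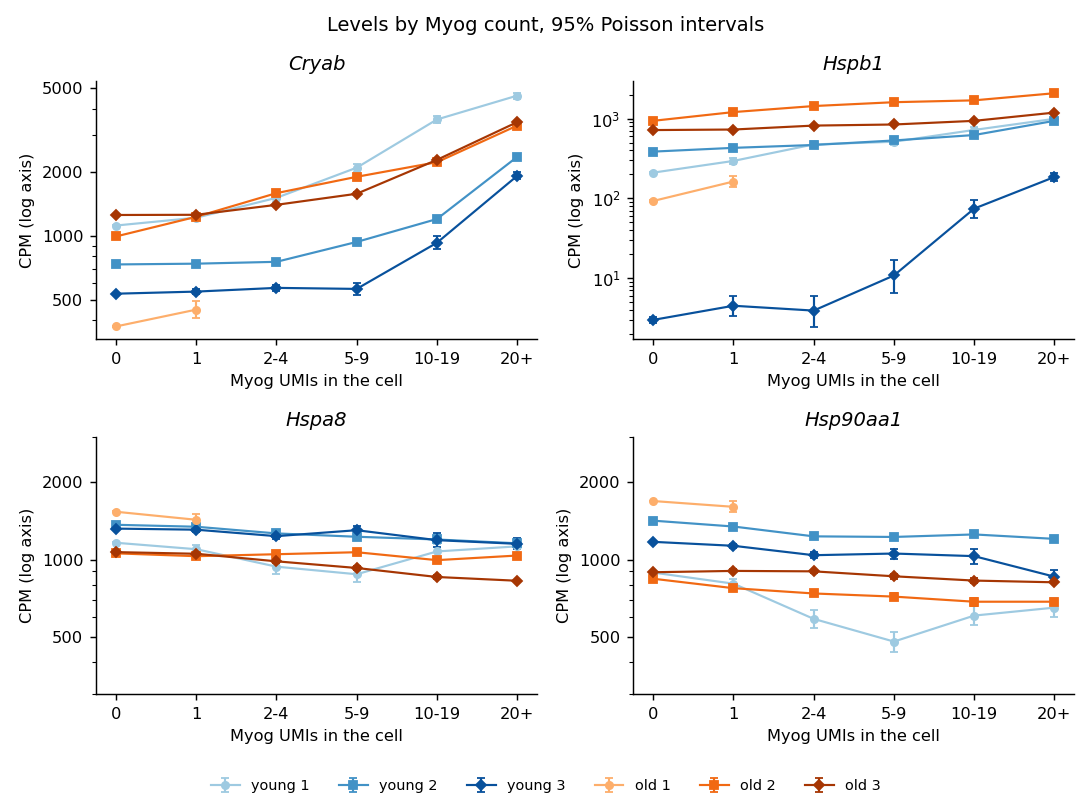
Level in CPM by number of Myog UMIs per cell, from 0 to 20 or more, with 1 line per sample for Cryab, Hspb1, Hspa8 and Hsp90aa1 and bars for 95% Poisson intervals of the counts. Cryab and Hspb1 are highest in the cells with 20 or more Myog UMIs in each of the 5 samples drawn across all bins.

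Dividing the Myog-positive cells by how many of the 8 contractile genes had a UMI showed where Cryab differed. With fewer than 3 of them detected, Cryab stood at 558 CPM in young 2, 528 in young 3, 1288 in old 2 and 1075 in old 3. With 3 or more it stood at 1823, 1766, 2915 and 2722 CPM in the same samples. Cells without Myog or Pax7, the satellite cell factor, stood at 860, 533, 1079 and 1427 CPM. In 3 of these 4 samples, then, Myog-positive cells with few contractile genes had no more Cryab than cells without Myog or Pax7. Cells with Pax7 but without Myog stood at 656 CPM in young 2, 822 in old 2 and 1032.5 in old 3. Against these, the Myog-positive cells with few contractile genes were lower in young 2 and higher in old 2 and, by little, old 3. Hspb1 was 416 CPM with few and 782 CPM with 3 or more contractile genes in young 2, 5.02 and 157 in young 3, 1426 and 1894 in old 2, and 780 and 1046 in old 3. Cells without Myog or Pax7 had 417, 2.99, 930 and 750 CPM of Hspb1 in these samples. In young 3, old 2 and, by little, old 3 it was thus already higher in Myog-positive cells with few contractile genes. Cells with Pax7 but without Myog had 365, 951 and 674 CPM of Hspb1 in young 2, old 2 and old 3. Each was below the Myog-positive cells with few contractile genes of its sample. The young 3 value in that class rests on 37 UMIs. Median depth in the 2 classes of Myog-positive cells was 14719 and 16054 UMIs in young 2, 16566 and 11706 in young 3, 19338 and 20650 in old 2 and 11149 and 13169 in old 3. The class with more contractile genes was the deeper one in 3 of these 4 samples, and the part of depth in its levels was not tested.

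Among the other chaperone genes, 10 of 60 rose, 12 fell and 38 did not pass, shares near the 14.3% higher and 17.3% lower of all genes tested. Small heat shock proteins rose in 3 of 4 cases: Hspb3 by a log2 fold change of 4.70, Hspb7 by 2.70 and Hspb2 by 2.12, while Hspb6 did not pass. Hspb2 lies against Cryab on the opposite strand, and whether the counting used strand is not given in the sources used here. The HSP40 list had 3 of 7 higher, led by Dnajb5 at 1.19. Of the cytosolic HSP70 list 3 of 8, of the HSP90 list 2 of 9 and of the nucleotide exchange list 2 of 8 fell. Of the ER list 4 of 7 fell and 1 rose, and of the mitochondrial list 1 of 5 fell and 1 rose. Of the heat shock factor list 2 of 4 rose, and of the TRiC chaperonin 0 of 8 passed. The contractile genes were higher in 8 of 8 cases, and the immediate-early genes, which enzymatic dissociation also raises, had 3 higher and 3 lower of 12. The 4 small heat shock protein genes had a median log2 fold change of 2.41, against -0.06 for all genes tested.

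The Myog effect itself was compared between the age groups by an interaction term over the 5 samples. No member passed, and 0 of 13387 genes did by edgeR (3.57% at an unadjusted p under 0.05; 42 genes by DESeq2). The difference of old minus young was 0.22 (SE 0.24) for Cryab, -0.16 (SE 0.23) for Bag3 and -1.22 (SE 0.82) for Hspb1 on the log2 scale.

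Cells without Myog UMIs were next divided by the cell cycle. Those with 20 or more UMIs summed over 12 genes of the G2 and M phases were compared with those at 2 or fewer in all 6 samples. In this comparison 8 of 10 members passed, against 52.5% of 12809 genes (23.1% higher and 29.4% lower, with 57.8% at an unadjusted p under 0.05). Hspa8, Hsp90aa1 and Dnajb1 were higher in the G2/M-high cells, and Hspa1a, Hspa1b, Hspb1, Cryab and Bag3 were lower. The G2/M-high cells were also deeper, at a median of 15430 to 22200 UMIs against 10180 to 18640.

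Hsp90aa1 went from 842 to 944 CPM in young 1, 1109 to 1514 in young 2, 815 to 1205 in young 3, 1471 to 1749 in old 1, 689 to 978 in old 2 and 686 to 963 in old 3. It was higher in 6 of 6 samples, as were 19.6% of all genes, by 0.43 (SE 0.06, adjusted p = 0.000196 by edgeR). Hspa8 went from 1192 to 1161 CPM in young 1, the one sample where it was lower, and from 1175 to 1522, 921 to 1390, 1358 to 1643, 1037 to 1175 and 880 to 1179 CPM in young 2, young 3, old 1, old 2 and old 3. Its log2 fold change was 0.33 (SE 0.08, adjusted p = 0.00794 by edgeR). Dnajb1 was higher in 6 of 6 samples, by 0.30 (SE 0.05, adjusted p = 0.000474 by edgeR), on levels of 23.5 to 36.3 CPM in the G2/M-low and 27.3 to 42.7 CPM in the G2/M-high cells.

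The inducible copy Hspa1a moved the other way. It went from 3.05 to 2.00 CPM in young 1, 2.98 to 1.81 in young 2, 1.42 to 0.856 in young 3, 2.29 to 1.48 in old 1, 11.4 to 5.54 in old 2 and 4.54 to 2.63 in old 3. All 6 samples fell, with a log2 fold change of -0.75 (SE 0.11, adjusted p = 0.000261 by edgeR). In the same order of samples, the G2/M-low values rest on 134, 61, 11, 35, 510 and 44 UMIs. Hspa1b was lower in 6 of 6 samples by -0.34 (SE 0.11, adjusted p = 0.025 by edgeR), a call that was lost with cells thinned to equal depth and classed by lower G2/M limits, 2 changes at once (-0.06, adjusted p = 0.783 by edgeR), and without young 1, young 2 or old 2.

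Hspb1 had the largest fall. It went from 286 to 148 CPM in young 1, 505 to 337 in young 2, 7.64 to 2.41 in young 3, 170 to 76.6 in old 1, 1262 to 652 in old 2 and 958 to 625 in old 3, a log2 fold change of -0.89 (SE 0.10, adjusted p = 0.000109 by edgeR). Cryab fell by 0.50 on the log2 scale (SE 0.11, adjusted p = 0.00382 by edgeR), from 1092 to 598 CPM in young 2 and from 1332 to 729 in old 2, and least in young 1, from 1176 to 1088 CPM. Bag3 fell by 0.23 on the log2 scale (SE 0.06, adjusted p = 0.00452 by edgeR). All 3 were lower in 6 of 6 samples, as were 27.0% of all genes. Hsph1 at 0.00 (SE 0.08) and Hspb8 at -0.27 (SE 0.19) did not pass. Hspb8 passed with thinned cells and the lower class limits, at -0.56 (adjusted p = 0.0118 by edgeR).

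**Figure D5:**
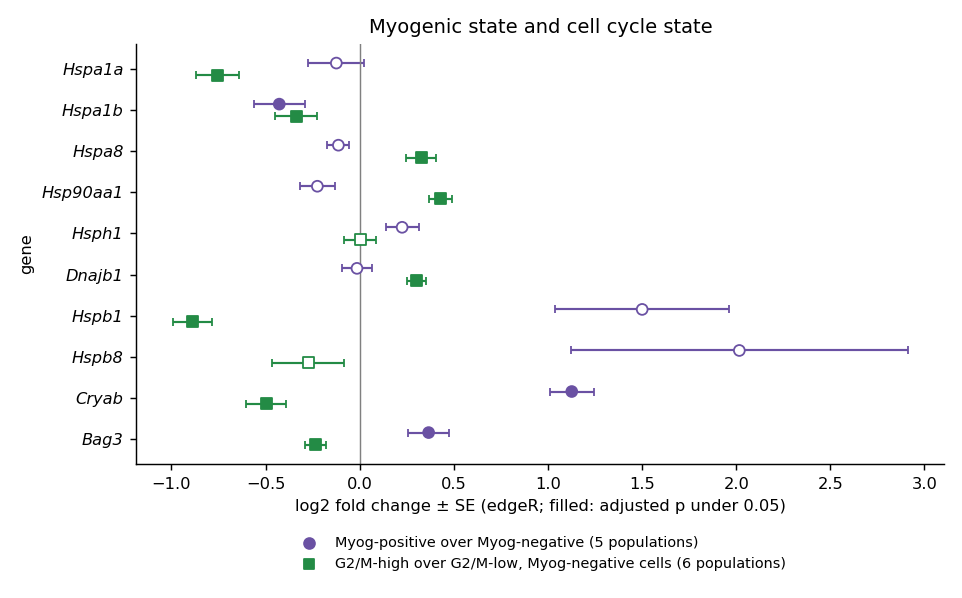
Log2 fold change of each member with its standard error in Myog-positive over Myog-negative cells (circles, 5 samples) and in G2/M-high over G2/M-low cells (squares, 6 samples), filled where the adjusted p was under 0.05. The squares that passed lie to the right of 0 for 3 members and to the left for 5, and Cryab and Bag3 have filled circles and squares on opposite sides of 0.

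Of the other chaperone genes 17 rose, 15 fell and 28 did not pass in G2/M-high cells, of 60 genes, which is near the 52.5% called among all genes tested. The largest changes were in Hspb3 at -1.70, the HSP70 gene Hspa14 at 1.08, Hspb7 at -1.01 and the ER gene Dnajb9 at -1.01 on the log2 scale. The HSP90 list had 5 of 9 higher and 0 lower, the TRiC list 3 of 8 higher and 0 lower, the HSP40 list 4 of 7 lower and the small heat shock protein list 3 of 4 lower. Contractile genes were lower in 7 of 7 tested cases and the myogenic markers in 6 of 7, although all these cells were without Myog UMIs. Their part in the fall of Cryab and Hspb1 was not tested.

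To see which genes accompany the inducible pair, cells with 2 or more Hspa1a plus Hspa1b UMIs were compared with cells at 0. There were 122, 181 and 64 such cells in young 1, 2 and 3 and 249, 762 and 172 in old 1, 2 and 3. None of the other 8 members passed, against 0.468% of 13257 genes (62, of which 8, or 0.0603% of the genes, were higher and 54, or 0.407%, lower, with 16.1% at an unadjusted p under 0.05). These counts include Hspa1a and Hspa1b themselves, which define the classes and so had to be higher. The positive cells were deeper, with a median of 17860 to 23020 UMIs against 12730 to 19260, as a rule that asks for UMIs favours deep cells.

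Hsph1 came nearest to the threshold. It stood at 89.7 and 123 CPM in the negative and positive cells of young 1, 134 and 161 in young 2, 172 and 182 in young 3, 124 and 167 in old 1, 122 and 152 in old 2 and 98.2 and 122 in old 3. It was higher in 6 of 6 samples, as were 5.97% of all genes (5.09% were lower in every sample), by 0.26 (SE 0.05, adjusted p = 0.0594 by edgeR). DESeq2 called it at an adjusted p of 3.93e-05, edgeR called it without old 3 at 0.000195, and with cells thinned to equal depth and classed as positive from 1 UMI, which changes depth and class limit together, the difference was 0.12 (adjusted p = 0.0737 by edgeR). Cryab at 0.25 (adjusted p = 0.0866 by edgeR) and Dnajb1 at 0.18 (adjusted p = 0.232 by edgeR) were also higher in 6 of 6 samples. For Cryab, DESeq2 gave 0.28 with an adjusted p of 0.00513, and the thinned cells with the lower class limit gave 0.03. Bag3 at 0.25 (SE 0.08, adjusted p = 0.179 by edgeR) was higher in 5 of 6 samples. Hspb8 at 0.76 (SE 0.65, adjusted p = 0.618 by edgeR) was higher in 4 of 6. Hspa8 at -0.01 (SE 0.04), Hsp90aa1 at -0.07 (SE 0.04) and Hspb1 at -0.0045 (SE 0.13) lay close to 0. Of 39 genes that were eligible to be named, the 6 with the largest changes were all lower: the cardiac actin gene Actc1 at -2.19, Myl4 at -1.77, Bex1 at -1.48, the fusion gene Mymk at -1.33, the troponin gene Tnni2 at -1.21 and the histone gene Hist1h2ae at -0.80. Of the contractile list 2 of 8 and of the myogenic list 0 of 8 passed. In Myog-negative cells only, the comparison called 6 genes in all instead of 62. The part of Myog state in the changes of the named genes was not tested.

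A single cell of old 3 stood apart in the inducible genes. It held 71 Hspa1a and 36 Hspa1b UMIs among 22441, which is 3164 and 1604 CPM. The cell with the next most, in old 1, held 16. The same cell held 32 Myog UMIs, 12 of Hspa8, 30 of Hsp90aa1, 4 of Hsph1, 2 of Dnajb1, 2 of Bag3, 22 of Cryab and 91 of Hspb1. Its Hspb1 level was 4055 CPM, against 866 CPM unscaled for the whole of old 3, and its Hspa8 and Cryab levels were 535 and 980 CPM. The cells of old 3 with 20 or more Myog UMIs stood at 1188 CPM for Hspb1, 828 for Hspa8 and 3457 for Cryab. The single cell carried 13.7% of the Hspa1a and 3.27% of the Hspa1b UMIs of old 3. A cell of young 1 with 6 Hspa1b UMIs held 100 of Hsp90aa1, 46 of Hspb1 and 8 of Hsph1 among 12509, but 1 of Hspa8 and 1 of Cryab. Each is a single cell and no replicate of anything.

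Correlations of the members across cells are given as descriptions, over cells of 1 library that share its depth of 5000 thinned UMIs. The mean correlation over the 6 samples was 0.26 for Hspb1 with Cryab (0.13 to 0.36) and 0.13 for Hspa8 with Hsp90aa1 (0.05 to 0.21), and the pair of lowest value was Hsp90aa1 with Cryab at -0.07 (-0.16 to 0.00091). The other pairs without Hspb8 had means under 0.05 in size. Pairs with Hspb8 have no mean, since thinned young 3 held none of its UMIs, and in single samples Hspb8 reached 0.23 with Hspb1 and 0.22 with Cryab. Among 1889 genes at 50 CPM or more in every sample, the gene most like Cryab and most like Hspb1 was the fast muscle myosin light chain Mylpf, at 0.33 and 0.31. Hspb1 was next most like Chrna1, a subunit of the muscle acetylcholine receptor, and Tpm2, a tropomyosin. The genes most like Hsp90aa1 were Npm1 at 0.24, Ncl at 0.22 and Hspd1 at 0.22, the nucleolar proteins nucleophosmin and nucleolin and the mitochondrial chaperonin. Those most like Hspa8 were Tubb5 at 0.20, Tubb4b at 0.19 and Ubb at 0.17, which encode tubulins and ubiquitin. The sparse members Hspa1a, Hspa1b, Hsph1, Dnajb1 and Bag3 had no gene above 0.08, and none is named for Hspb8.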

How the data were processed

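The authors deposited a matrix of raw UMI counts per gene and cell barcode for each sample. These counts were made with Cell Ranger 7.0.0 (young 1 and old 1) or 7.2.0 (the other 4), per the file headers, while the submitters' processing notes name Cell Ranger 7.2.0, Seurat 5.134 and mm10. Gene lists of 21849 and 32285 features shared 21485 identifiers, which were used here. Cells were kept at 1000 UMIs, 500 genes and under 15% mitochondrial counts. Scrublet called 0.0231% to 9.37% of cells per sample, so its calls were not removed, and an alternative dropped the highest scores at 0.8% per 1000 barcodes.

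Counts were summed per sample, or per sample and class of cells, and tested with edgeR 4.0.16 (quasi-likelihood, trimmed mean of M-values, low-count filter) in R 4.3.3, with a term for the gene list or, within samples, for the sample. DESeq2 1.42.0 was an alternative. The code was tested on simulated data. Single ratios used exact permutation tests. Nothing but the labels says that populations came from separate mice, and p-values measure the spread between these samples. The members and lists were chosen with earlier results of these data known, and the list genes named are those with the largest changes past the threshold, up to 4 per comparison. For the inducible pair 6 further genes were named by size among those past the threshold and of 1 sign in every sample. Levels within cell classes are unscaled CPM. Intervals and limits cover counting error only.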

Additional observations from a re-analysis of the deposited data

How the results depend on the processing

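Values are log2 differences unless called genes or members. For classes of cells, thinning also lowered the class limits, so those values changed both choices at once. Old against young, DESeq2 called 219 genes and 1 member (Hspb8), and 0 genes were called with thinned cells, without the gene list term or on the longer list only. Cryab was -0.00113 in Myog-negative cells only. Leaving out 1 sample gave 0 to 3 genes, -0.523 to 0.0221 for Hsp90aa1, -0.466 to 1.17 for Cryab, -0.166 to 0.0702 for Bag3, -0.131 to 3.25 for Hspb1 and -0.0442 to 0.197 for the Hsp90aa1 to Hsp90ab1 ratio. In the edgeR fits without young 1 or old 1, the gene list term took up the other. Those fits thus compared young 2 and 3 with old 2 and 3.

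By Myog, DESeq2 called 5 members (Cryab, Bag3, Hspa1b, Hspb1 and Hspb8). Without the replicate block, which here is the sample term, 87 genes and 0 members were called. Hspa8 was 0.106 and Dnajb1 0.132 in G2/M-low cells. Leaving out 1 sample gave 1813 to 4545 genes, 1 to 4 members and -0.0672 to 0.0311 for Dnajb1. For the Myog effect by age, DESeq2 called 42 genes, and leaving out 1 sample gave 0 to 4 genes, -0.117 to 0.471 for Hspa1a, -0.332 to 0.00499 for Bag3 and -0.041 to 0.186 for Hspa8.

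By inducible HSP70, the 62 genes became 367 with DESeq2 (2 members, Hsph1 and Cryab), 37 with DESeq2's size factors in edgeR, 121 without the filter, 16 without high doublet scores, 365 thinned, 2 without the replicate block and 6 in Myog-negative cells. Hspa8 was 0.0151 with DESeq2, 0.0138 with its size factors, 0.00191 without high doublet scores and 0.0223 thinned. Hspb1 was 0.0158 with the size factors and 0.122 in Myog-negative cells, and Hspb8 was -0.0549 thinned. Leaving out 1 sample gave 6 to 773 genes, 0 to 2 members (Hsph1 and Bag3 without old 3, where the 773 also arose), -0.0848 to 0.0472 for Hspb1 and -0.073 to 1.48 for Hspb8. By G2/M, 778 genes and 0 members were called without the replicate block. Hsph1 was -0.0171 with DESeq2, -0.0177 with its size factors, -0.0172 thinned and -0.00698 without high doublet scores. Leaving out 1 sample gave -0.0785 to 0.0637 for Hsph1 and -0.369 to 0.0738 for Hspb8. The cause of these changes was not tested.

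With the replicate number as a block, old against young, 1 gene and 0 members were called. Same-numbered samples correlated at 0.42, 0.32 and -0.12 over 7958 genes, so the numbers were not taken as pairs. The comparison by inducible HSP70 at 5 UMIs was not run, because it left too few cells. All but 2 of 60 shares moved beyond their binomial interval without thinning. Few UMIs limit what can be said of Hspa1a, Hspa1b and Hspb8.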
